A study of Mus musculus with 10 samples.

Results

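Lungs came from mice that the paper describes as female BALB/c, 8 weeks old at purchase. The following 10 long noncoding RNAs were followed in them, namely Malat1, Neat1, Meg3, Kcnq1ot1, Miat, Gas5, Snhg1, Snhg12, H19 and Mir22hg. They were chosen by symbol, as the rows of the deposited transcript table that carry one of these 10 names, and they made up 10 of 24394 gene symbols and 15 of 66548 rows. The series compared 3 groups of lung libraries. Saline mice (n = 3) received saline only. OVA mice (n = 3) were given ovalbumin with aluminium adjuvant into the peritoneum, were then challenged with ovalbumin through the nose, and took the vehicle by mouth, which is a model of allergic asthma. Herb mice (n = 4) went through the same ovalbumin protocol and took an ethanol extract of Descurainia sophia seeds by mouth (DSE). OVA and Herb libraries therefore share sensitization and challenge, and no untreated group with the extract alone was analysed here. Whole lung was taken, so the libraries mix all its cell types, and fewer cells of a type cannot be told apart from less RNA per cell.

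Most long noncoding RNAs act without being translated, and the members fall into 3 classes by where they stay and what they carry. Malat1 gathers in nuclear speckles beside splicing factors, Neat1 is the scaffold of paraspeckles, Kcnq1ot1 and Meg3 are imprinted transcripts that act on chromatin, and Miat forms nuclear spots of its own. These 5 are called nuclear-retained here. Gas5, Snhg1 and Snhg12 are snoRNA-host RNAs, whose introns release small nucleolar RNAs (snoRNAs) that guide chemical modification of ribosomal and other RNAs, whereas the spliced host leaves for the cytoplasm and, because ribosomes read it, is broken down by nonsense-mediated decay. H19 and Mir22hg carry microRNA hairpins in their exons and are called microRNA-host RNAs.

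Expression was read as FPKM, a fragment count divided by transcript length and by the mapped fragments of its library, in units of 1 kilobase and 1e6 fragments. Library depth, estimated from the smallest steps of the values, was 14.9 to 27.5 in units of 1e6 fragments. The composition of the libraries differed between groups. Protein-coding RefSeq rows held 33.0% to 33.3% of the fragments in Saline, 11.9% to 14.9% in OVA and 19.3% to 25.8% in Herb. The ribosomal RNA precursor Rn45s stood at 1201 to 1386 FPKM in Saline, 10014 to 13531 in OVA and 3229.7 to 7019 in Herb, so none of the 3 groups overlapped in either measure. An FPKM is a share of its library, and tests were therefore repeated after every library was rescaled to a common 75th percentile of gene sums. Fits of single rows or of locus sums used the 75th percentile of those rows or sums instead. The part of the composition shift in the deposited differences was not tested beyond that rescaling. The libraries carried lung markers throughout, with the 5 alveolar type 2 genes summing to 2505 to 3370.4 FPKM in Saline, 224 to 490.3 in OVA and 599 to 1335 in Herb, and none of them was at 0 in all libraries. The 4 macrophage markers summed to 90.9 to 194 FPKM in Saline, 81.8 to 279.7 in OVA and 351 to 622 in Herb, and the 6 type 2 response genes to 0.310 to 5.70, 649 to 5158 and 1195 to 4486 FPKM. Sums for endothelial cells (4 genes), fibroblasts (4), club cells (2), alveolar type 1 cells (5), eosinophils (4), neutrophils (4), B cells (4) and T cells (4 of 5 in the table) were lower in every OVA library than in every Saline library as deposited. After rescaling, no neutrophil, B cell or T cell marker passed the test described below in OVA vs. Saline. With it, 1 eosinophil marker was higher and 2 lower, and 1 fibroblast marker higher and 3 lower. For alveolar type 1, endothelial and club cells, 3, 2 and 1 markers were lower and none higher. Of all gene sums 41.8% passed. The paper counted more eosinophils and neutrophils in lavage fluid of OVA than of Saline mice. The part of cell composition in the results on the 10 RNAs was not tested.

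Tests were run with limma on log2(FPKM + 1) over all gene sums, a gene sum being the total of all rows of a symbol. Gene sums averaging under 1 FPKM were left out, and a call is an adjusted p (Benjamini-Hochberg) under 0.05. The average was taken over all 10 libraries, so a gene averaging under 1 FPKM in Saline passed only through higher values elsewhere. This was so for Meg3, and for Kcnq1, Son, Pvt1 and Fbl named further on, and such genes could hardly be called lower than Saline. Of the 10 members, 8 passed that filter, and Miat and H19 did not. In OVA vs. Saline, 1 member was called higher (Meg3) and 5 lower (Malat1, Kcnq1ot1, Gas5, Snhg1 and Snhg12), against a background in which 61.2% of the 11205 gene sums were called, 57.9% lower and 3.28% higher. The median log2 fold change of all gene sums was -0.75 in this comparison. In all, 6 members did not overlap between these groups, and 67.6% of all gene sums did not. In Herb vs. OVA only Kcnq1ot1 was called, and it was higher, whereas 44.5% of the gene sums were called, 44% higher and 0.446% lower, with a median of 0.48. Malat1 and Kcnq1ot1 did not overlap between Herb and OVA, and this held for 50.2% of all gene sums. In Herb vs. Saline, Meg3 was called higher and Snhg1 and Snhg12 lower, with 26.1% of the gene sums called, 22.7% lower and 3.32% higher, a median of -0.27, and 43.6% not overlapping. After rescaling, the medians were 0.10, 0.00394 and 0.10, the shares called were 41.8%, 0.819% and 16.1%, and in OVA vs. Saline the calls were 2833 higher and 1913 lower in place of 368 and 6485. Then 2 members were called in OVA vs. Saline (Meg3 and Gas5, both higher), none in Herb vs. OVA, and Meg3 in Herb vs. Saline. With 8 members tested, all of these counts are small, and they are read beside the per-library values that follow.

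**Figure D1:**
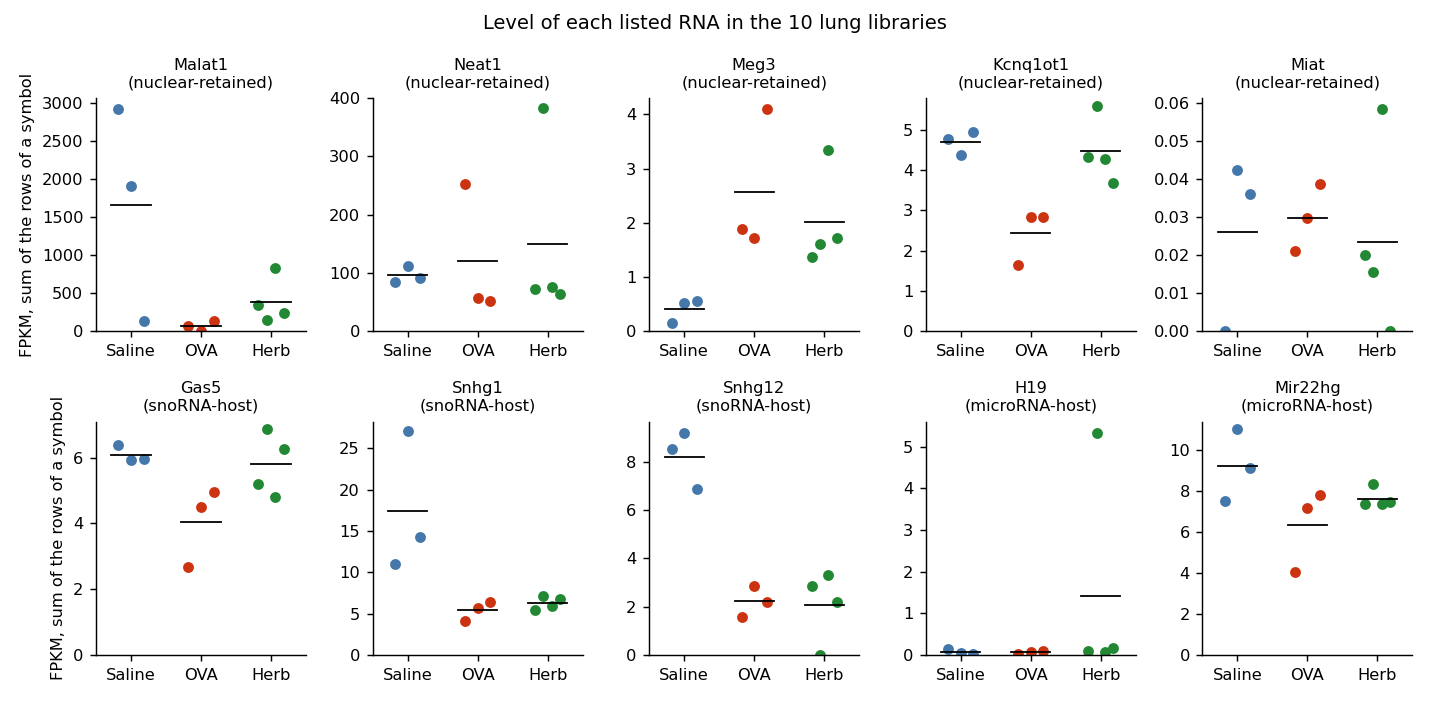
Level of each of the 10 RNAs (y axis, FPKM summed over the rows of a symbol, linear scale from 0) in the 3 Saline, 3 OVA and 4 Herb libraries. Each point is 1 library and each black line a group mean. Meg3 is higher in all OVA and Herb libraries than in Saline, Snhg1 and Snhg12 are lower in all of them, and H19 stands above 1 FPKM in 1 Herb library only.

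Malat1 (chr19:5795690-5802672, minus strand, GRCm38.p6) is an abundant single-exon RNA of nuclear speckles. Its RefSeq row stood at 2919.8, 1909 and 141 FPKM in the Saline libraries. It was at 62.1, 0.228 and 139 FPKM in OVA and at 339, 145, 836 and 235 FPKM in Herb. Saline replicates 1 and 2 were far above all others, Saline replicate 3 was next to the highest OVA library, and OVA replicate 2 was near 0. The log2 fold change was -5.38 ± 1.74 (SE) in OVA vs. Saline (limma, adjusted p = 0.0235), 3.83 ± 1.63 in Herb vs. OVA (adjusted p = 0.0828) and -1.55 ± 1.63 in Herb vs. Saline (adjusted p = 0.506). The first call was lost without OVA replicate 2 (-3.30, adjusted p = 0.0521), without Saline replicate 1 (-4.55, adjusted p = 0.0784), without Saline replicate 2 (-4.86, adjusted p = 0.0707) and after rescaling (-4.37, adjusted p = 0.0929). Without OVA replicate 3, Herb vs. OVA was called (5.16, adjusted p = 0.0442).

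The RefSeq row did not hold all reads of the Malat1 locus. The table also lists transcript models that the authors' assembler built from the reads, without a symbol, and 4 of them belong to the Malat1 locus by their numbering. Adding them gives a locus sum, an alternative chosen after the values were seen. The locus sums were 3447, 2961 and 403 FPKM in Saline, 228, 435 and 319 in OVA, and 1027, 507, 1896 and 1506 in Herb. OVA replicate 2 was thus not low at the locus as a whole, since a single model held 339 FPKM there, and the RefSeq row held between 0.0524% (OVA replicate 2) and 84.7% (Saline replicate 1) of the locus sum. On locus sums every Herb library was above every OVA library, and Saline replicate 3 lay among the OVA values. The log2 fold change of the locus was -2.34 ± 0.79 in OVA vs. Saline (adjusted p = 0.0255), 1.80 ± 0.74 in Herb vs. OVA (adjusted p = 0.0663) and -0.54 ± 0.74 in Herb vs. Saline (adjusted p = 0.611). The first of these did not pass after rescaling (-1.27 ± 0.83, adjusted p = 0.230). Of 11854 locus sums tested, 65.7% were called in OVA vs. Saline, 51.8% in Herb vs. OVA and 29.1% in Herb vs. Saline. The fold change of the row was thus larger than that of the locus in OVA vs. Saline, with an SE that was also larger.

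**Figure D2:**
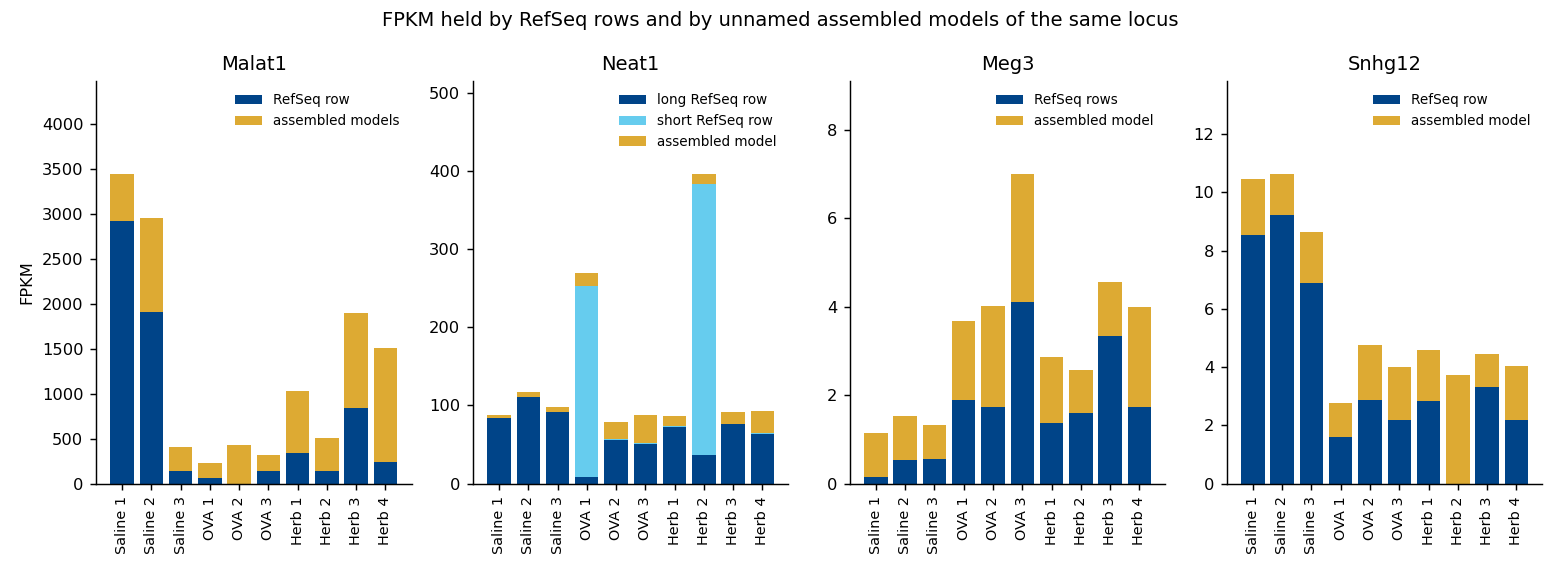
FPKM (y axis, linear from 0, a separate scale in each panel) held by the RefSeq rows and by unnamed assembled models of the Malat1, Neat1, Meg3 and Snhg12 loci, stacked for each of the 10 libraries. The Malat1 row is almost absent in OVA replicate 2 and the Snhg12 row in Herb replicate 2, where models hold the reads, and the short Neat1 row is large in OVA replicate 1 and Herb replicate 2 only.

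Neat1 (chr19:5824708-5845480, minus strand) lies next to Malat1 and is made as a short and a long isoform that share a start, of which the long isoform builds paraspeckles. The long row NR_131212 (20771 nt) stood at 83.6, 111 and 91.5 FPKM in Saline, at 8.37, 56.0 and 51.3 in OVA, and at 72.5, 37.1, 75.7 and 63.3 in Herb. All 3 OVA libraries and all 4 Herb libraries were below the Saline libraries for the long row. The short row NR_003513 (3004 nt) stayed at 0.203 to 0.277 FPKM in Saline. In OVA it was at 244, 1.09 and 1.13 FPKM, and in Herb at 0.784, 347, 0.802 and 0.908. Only OVA replicate 1 and Herb replicate 2 had a high short row, and these were the libraries with the lowest long row of their group. The long row held 97.8% to 99.8% of the gene sum in 8 libraries, 3.31% in OVA replicate 1 and 9.66% in Herb replicate 2.

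Neat1 as a gene sum was not called in any comparison, with a log2 fold change of -0.06 ± 0.76 in OVA vs. Saline (adjusted p = 0.957), 0.25 ± 0.71 in Herb vs. OVA (adjusted p = 0.797) and 0.19 ± 0.71 in Herb vs. Saline (adjusted p = 0.866). The OVA vs. Saline value turned to 1.09 after rescaling (adjusted p = 0.282), and it ranged from -0.78 without OVA replicate 1 to 0.34 without OVA replicate 3. Tested as a single row, the long isoform had a log2 fold change of -1.66 ± 0.62 in OVA vs. Saline (adjusted p = 0.0548; rescaled -0.76, adjusted p = 0.384), among 30194 rows of which 44.2% were called. It was 1.01 ± 0.58 in Herb vs. OVA (adjusted p = 0.207, 32.4% of rows called) and -0.65 ± 0.58 in Herb vs. Saline (adjusted p = 0.516, 8.09% of rows called). The share of the long row was 33.3 percentage points lower in OVA than in Saline (exact permutation test, two-sided, p = 0.1, the smallest possible with 3 against 3, adjusted 0.3 over 6 tests), and without OVA replicate 1 the difference was -1.79 points. In Herb it was 23.2 points below Saline (p = 0.0571 by the same exact test, the least that can be reached with 3 against 4, adjusted 0.3), and -0.932 points without Herb replicate 2. All Saline shares were above all OVA and Herb shares. The rows overlap along the whole short isoform, so their split rests on how the authors' software assigned shared reads. The same number of reads gives a higher FPKM in the shorter row, so the gene sum depends on that split too.

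The proteins that work beside these RNAs were counted from lists. Of 11 paraspeckle proteins 7 were tested, and in OVA vs. Saline 1 was called higher and 1 lower, beside 3.28% and 57.9% of all gene sums. Their median change was -0.50 (log2) against -0.75 for all gene sums. Sfpq, an RNA-binding protein required for paraspeckles, stood at 8.99, 3.46 and 8.35 FPKM in Saline, 28.1, 12.7 and 14.5 in OVA and 6.06, 7.14, 8.67 and 6.88 in Herb. It rose in OVA vs. Saline (1.298 ± 0.36, adjusted p = 0.0110) and fell in Herb vs. OVA (-1.17 ± 0.33, adjusted p = 0.0207), with no overlap between OVA and either other group. Rescaled, the rise passed (2.35, adjusted p = 0.00264) and the fall did not (-1.83, adjusted p = 0.0609). Hnrnpk, another RNA-binding protein of paraspeckles, was at 61.2 to 66.1 FPKM in Saline, 0.992 to 15.8 in OVA and 3.92 to 37.0 in Herb, and it fell in OVA vs. Saline (-3.79 ± 0.94, adjusted p = 0.00666, rescaled -2.80, adjusted p = 0.0499). Among 9 of 11 nuclear speckle proteins tested, 1 was called higher and 1 lower, with a median of -0.29, beside the same shares and median of all gene sums. Srsf3, a splicing factor, was lower in OVA (1.95 to 5.79 FPKM) than in Saline (11.7 to 12.4; -1.46 ± 0.41, adjusted p = 0.0128), which did not pass after rescaling (-0.47, adjusted p = 0.386). Son, a large speckle protein, was called higher (1.96 ± 0.70, adjusted p = 0.0351, rescaled 2.63, adjusted p = 0.0275) although only OVA replicates 1 and 2 stood apart, at 11.2 and 11.3 FPKM, and OVA replicate 3 was at 0.455 among Saline values of 0.465 to 0.637. After rescaling, 2 paraspeckle proteins were called higher and 1 lower, and 4 speckle proteins higher and none lower, with medians of 0.40 and 0.55 against 0.10. On that scale 41.8% of all gene sums were called, 2833 higher and 1913 lower.

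Meg3 (chr12:109540996-109571729, plus strand) is the maternally expressed RNA of an imprinted domain and was the only member called higher in OVA vs. Saline as deposited. It passed the filter through OVA and Herb, since its Saline mean was 0.414 FPKM. With no filter it was still called higher in OVA vs. Saline (limma, adjusted p = 0.00889) and in Herb vs. Saline (adjusted p = 0.0437). Its gene sum was 0.160, 0.526 and 0.555 FPKM in Saline. It was 1.89, 1.72 and 4.11 FPKM in OVA and 1.37, 1.60, 3.34 and 1.73 FPKM in Herb. Every OVA and every Herb library was thus above every Saline library, and OVA and Herb overlapped. The log2 fold change was 1.29 ± 0.30 in OVA vs. Saline (adjusted p = 0.00432) and 1.06 ± 0.28 in Herb vs. Saline (adjusted p = 0.0254), which is 2.04 and 1.33 above the median of all gene sums. In Herb vs. OVA it was -0.23 ± 0.28 (adjusted p = 0.520). Rescaling kept both calls, at 1.92 ± 0.34 (adjusted p = 0.00289) and 1.19 ± 0.32 (adjusted p = 0.0374). So did the locus sums with 1 assembled model, which were 1.15, 1.54 and 1.33 FPKM in Saline, 3.67, 4.02 and 6.9996 in OVA and 2.86, 2.57, 4.56 and 3.99 in Herb (1.29 ± 0.23, adjusted p = 0.000858, and 0.92 ± 0.22, adjusted p = 0.0157). The call in OVA vs. Saline remained without any 1 library, at 1.00 to 1.46. The call in Herb vs. Saline was lost without any 1 of the 3 Saline libraries and without Herb replicate 3 or 4, at adjusted p = 0.0515 to 0.0827 and fold changes of 0.87 to 1.14.

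Of the 3 Meg3 rows, NR_027652 (1896 nt) held 81.5% to 97.4% of the gene sum in all libraries but Saline replicate 1 (46.5%), whose gene sum was the lowest. Its share did not separate the groups (exact permutation tests, two-sided, p = 0.5 to 1, adjusted 0.617 to 1). The microRNA rows inside Meg3, Mir770 and Mir1906-1, were at 0.118 FPKM or less, the latter listed at 0 in all libraries. Rian and Mirg, further RNAs of the same imprinted domain, were at 0.620 to 1.48 and 0.0180 to 0.441 FPKM and below the filter. For Rian every Herb library (0.893 to 1.48 FPKM) was above every Saline library (0.749 to 0.830 FPKM) and OVA overlapped with both, and for Mirg all groups overlapped. The promoter window of the first Meg3 start held a TATA box, as printed with the other promoters further on.

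Kcnq1ot1 (chr7:143213111-143296547, minus strand) runs antisense through an intron of Kcnq1 and is known for silencing imprinted genes around it. It stood at 4.77, 4.37 and 4.93 FPKM in Saline, at 1.64, 2.83 and 2.84 in OVA, and at 4.33, 5.59, 4.27 and 3.68 in Herb. OVA was below both other groups without overlap, and Herb overlapped with Saline. It fell in OVA vs. Saline (-0.75 ± 0.18, adjusted p = 0.00503) and was higher in Herb vs. OVA (0.68 ± 0.16, adjusted p = 0.0120), with -0.07 ± 0.16 in Herb vs. Saline (adjusted p = 0.790). The fall equalled the median of all gene sums, from which it differed by 0.00181. After rescaling, the libraries read 3.43, 3.17 and 3.57 in Saline, 2.99, 4.12 and 4.55 in OVA and 4.14, 5.03, 4.94 and 3.805 in Herb, the difference in OVA vs. Saline was 0.14 ± 0.15 (adjusted p = 0.463) and that in Herb vs. OVA 0.17 ± 0.14 (adjusted p = 0.441). With libraries set to a common sum of protein-coding rows, OVA vs. Saline was called higher (0.44, adjusted p = 0.0272).

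The protein-coding gene on the other strand had the opposite sign in OVA vs. Saline as deposited. Kcnq1, a potassium channel subunit, was at 0, 0.0206 and 1.17 FPKM in Saline, 4.17, 2.27 and 3.85 in OVA and 2.68, 3.91, 4.68 and 4.17 in Herb. It rose in OVA vs. Saline (1.74 ± 0.32, adjusted p = 0.00127) and in Herb vs. Saline (1.88 ± 0.30, adjusted p = 0.00830), also after rescaling (2.38, adjusted p = 0.00139, and 1.97, adjusted p = 0.0123), where Kcnq1ot1 had the same sign. The sources differ on whether the library kit kept strand, so reads of the 2 genes where they overlap may not have been told apart. The same holds for Gas5, which overlaps Zbtb37 on the other strand, and Mir22hg overlaps Tlcd2 on its own strand. Of 11 imprinted neighbours of Meg3, H19 and Kcnq1ot1, 5 were tested, of which Kcnq1 was called higher and 2 lower in OVA vs. Saline. Over all gene sums 3.28% were called higher and 57.9% lower. Cd81, a membrane tetraspanin, had the lowest log2 fold change of these (-2.28 ± 0.31, adjusted p = 0.000290, rescaled -1.17, adjusted p = 0.00733). It was at 55.6 to 72.9 FPKM in Saline, 8.36 to 18.2 in OVA and 21.3 to 41.8 in Herb. After rescaling, 2 of the 5 neighbours were called higher and 1 lower, where 41.8% of all gene sums were called. Miat (chr5:112213228-112228948, minus strand) was at 0.0585 FPKM or less in every library, with 1 of its 2 rows listed at 0 throughout, and no difference was detectable at that level.

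**Figure D3:**
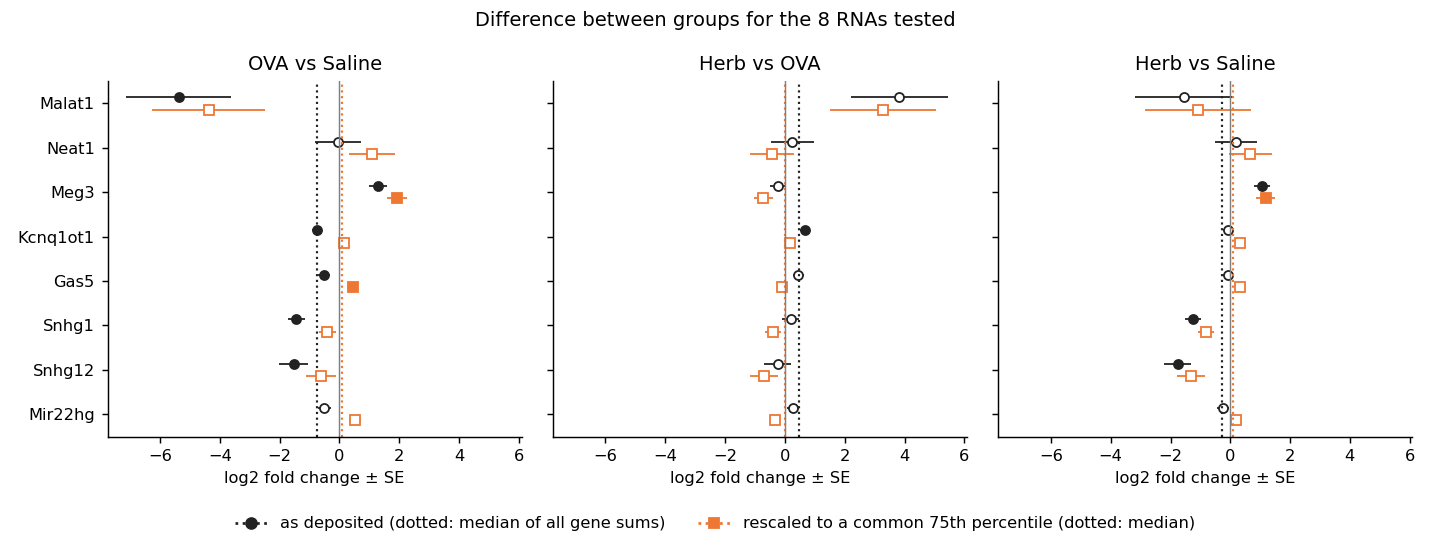
Log2 fold change with its SE (x axis, log2(FPKM + 1) scale) of the 8 RNAs tested, in 3 comparisons. Circles are values as deposited and squares values rescaled to a common 75th percentile, filled where the adjusted p was under 0.05, and dotted lines are the medians of all gene sums. Meg3 lies to the right of both medians in OVA vs. Saline and Herb vs. Saline, and Gas5 changes side with the scaling in OVA vs. Saline.

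Many snoRNA hosts, like the genes of ribosomal proteins, are known to start transcription in a run of pyrimidines, and promoters are shown to set the hosts beside nuclear-retained members. Windows of 70 bases around the start sites, from RefSeq on GRCm38.p6, matched 8 of the 10 members, Neat1 and H19 being without an entry. Capitals mark TATA where it lies 40 to 21 bases upstream of the start on the transcribed strand, and the longest run of C and T within the stretch from 5 bases upstream to 15 bases downstream, where it has at least 5 letters. Only the transcribed strand was searched, and the motifs do not overlap. Gas5 is shown at chr1:161035121-161035190 (plus), Snhg1 at chr19:8723442-8723511 (plus), Snhg12 at chr4:132308633-132308702 (plus), Meg3 at chr12:109540951-109541020 (plus), Kcnq1ot1 at chr7:143296523-143296592 (minus) and Malat1 at chr19:5802648-5802717 (minus).
Gas5: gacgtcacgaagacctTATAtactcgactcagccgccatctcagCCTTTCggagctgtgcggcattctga
Snhg1: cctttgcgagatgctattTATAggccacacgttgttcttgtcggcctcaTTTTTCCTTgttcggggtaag
Snhg12: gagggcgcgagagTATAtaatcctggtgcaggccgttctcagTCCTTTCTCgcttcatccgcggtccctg
Meg3: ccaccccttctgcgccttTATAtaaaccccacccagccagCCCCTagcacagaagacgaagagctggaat
Kcnq1ot1: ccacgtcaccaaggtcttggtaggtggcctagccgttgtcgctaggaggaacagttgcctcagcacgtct
Malat1: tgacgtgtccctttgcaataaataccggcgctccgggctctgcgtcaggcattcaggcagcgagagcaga

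All 3 snoRNA hosts and the first Meg3 start held both features within the searched stretches. The annotated start itself lies inside the marked run in Gas5 and Snhg12, upstream of it in Snhg1 and downstream of it in Meg3. Among 32851 promoter windows, 5.34% held TATA there, 33.6% a run of 5 or more and 2.0% both. The runs were 9 letters in Snhg1 and Snhg12, a length reached by 4.21% of all windows, and 6 in Gas5, reached by 17.6%. Miat had a run of 7 letters and Mir22hg one of 5, without TATA, and Malat1 and Kcnq1ot1 had neither. A second annotated Gas5 start upstream and a second Meg3 start downstream had neither as well. A match describes letters only, and the promoters were not measured in this table.

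Snhg1 (chr19:8723487-8726326, plus strand) kept its calls without any 1 library, which the rows of the other 2 hosts did not. It stood at 11.01, 27.1 and 14.3 FPKM in Saline, at 4.15, 5.72 and 6.43 in OVA, and at 5.395, 7.16, 5.86 and 6.72 in Herb. All OVA and Herb libraries were below all Saline libraries, and Herb overlapped with OVA. The log2 fold change was -1.44 ± 0.29 in OVA vs. Saline (adjusted p = 0.00209) and -1.25 ± 0.27 in Herb vs. Saline (adjusted p = 0.0143), 0.69 and 0.99 below the medians of all gene sums. In Herb vs. OVA it was 0.19 ± 0.27 (adjusted p = 0.590). Without 1 library at a time, the changes in OVA vs. Saline and Herb vs. Saline ranged over -1.71 to -1.09 and -1.52 to -0.90. After rescaling neither passed, at -0.41 ± 0.28 (adjusted p = 0.265) and -0.81 ± 0.26 (adjusted p = 0.0635).

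Snhg12 (chr4:132308678-132311024, plus strand) followed the same order. Its row was at 8.53, 9.21 and 6.87 FPKM in Saline, at 1.59, 2.87 and 2.19 in OVA, and at 2.84, 3.33 and 2.18 in Herb replicates 1, 3 and 4, and it was listed at 0 in Herb replicate 2. An exact 0 can be a failed estimate in this table, where Gapdh, a gene that every cell uses, has a value above 0 in 1 library alone. With the 1 assembled model of the locus added, the locus sums were 10.4, 10.6 and 8.65 FPKM in Saline, 2.76, 4.76 and 3.997 in OVA and 4.58, 3.73, 4.44 and 4.05 in Herb. Herb replicate 2 then lay inside the range of the OVA libraries. The row had a log2 fold change of -1.53 ± 0.48 in OVA vs. Saline (adjusted p = 0.0207) and -1.76 ± 0.45 in Herb vs. Saline (adjusted p = 0.0235), and the locus sum -1.19 ± 0.16 (adjusted p = 0.000212) and -1.07 ± 0.15 (adjusted p = 0.00571). In Herb vs. OVA the row gave -0.24 ± 0.45 (adjusted p = 0.693) and the locus sum 0.12 ± 0.15 (adjusted p = 0.516).

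The calls on the Snhg12 row were sensitive to single libraries. In OVA vs. Saline the call was lost without Saline replicate 1 (-1.499, adjusted p = 0.0520), Saline replicate 2 (-1.45, adjusted p = 0.0570) or OVA replicate 1 (-1.38, adjusted p = 0.0674). In Herb vs. Saline it was lost without any 1 Saline library (-1.87 to -1.68, adjusted p = 0.0554 to 0.0794). Rescaled, the row was at -0.62 ± 0.50 (adjusted p = 0.343) and -1.32 ± 0.46 (adjusted p = 0.0830). The rescaled locus sums gave -0.28 ± 0.15 in OVA vs. Saline (adjusted p = 0.156, 47.6% of locus sums called), -0.41 ± 0.14 in Herb vs. OVA (adjusted p = 0.101, 2.43% called) and -0.69 ± 0.14 in Herb vs. Saline (adjusted p = 0.0152, 20.8% called). On that scale Snhg1 was also called lower in Herb vs. Saline (-0.87 ± 0.26, adjusted p = 0.0459). Snhg1 has no assembled model, so its deposited locus sum is its gene sum, which did not pass at the 75th percentile of gene sums (adjusted p = 0.0635).

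Gas5 (chr1:161034601-161038539, plus strand), named for its build-up in growth-arrested cells, had the smallest change of the 3 hosts in OVA vs. Saline. It stood at 6.38, 5.93 and 5.95 FPKM in Saline, at 2.67, 4.50 and 4.95 in OVA, and at 5.21, 6.89, 4.81 and 6.27 in Herb. OVA was below Saline without overlap, and Herb overlapped with both. The log2 fold change was -0.52 ± 0.19 in OVA vs. Saline (adjusted p = 0.0409), 0.45 ± 0.18 in Herb vs. OVA (adjusted p = 0.0689) and -0.07 ± 0.18 in Herb vs. Saline (adjusted p = 0.800). The fall was smaller than the median of all gene sums by 0.23. It turned on rescaling, to 4.59, 4.31 and 4.31 in Saline and 4.85, 6.56 and 7.92 in OVA, a rise of 0.44 ± 0.16 (adjusted p = 0.0490), and with libraries set to a common sum of protein-coding rows it was 0.77 (adjusted p = 0.00213). The deposited call was lost without any 1 Saline library, without OVA replicate 1 (-0.31, adjusted p = 0.116) and without Herb replicate 1 or 4, at adjusted p = 0.0526 to 0.116. Without OVA replicate 3, Herb vs. OVA was called (0.59, adjusted p = 0.0434). Gas5 has 1 row and no assembled model, so the fits of rows and of locus sums used the same deposited values. The fall was not called among rows (adjusted p = 0.0667) and was called among locus sums (adjusted p = 0.0340). The rescaled rise passed in neither (0.25, adjusted p = 0.306, and 0.36, adjusted p = 0.0863).

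Within a library the ratio of 2 members does not depend on how that library is scaled. Snhg1 was 1.73, 4.57 and 2.40 times as high as Gas5 in Saline, 1.55, 1.27 and 1.299 times in OVA and 1.04, 1.04, 1.22 and 1.07 times in Herb, so the 3 groups followed each other without overlap. For the Snhg12 locus sum the ratio to Gas5 was 1.45 to 1.79 in Saline, 0.807 to 1.06 in OVA and 0.542 to 0.923 in Herb. Meg3 went from 0.0252 to 0.0932 times Gas5 in Saline to 0.383 to 0.8292 in OVA and 0.233 to 0.694 in Herb. The Kcnq1ot1 ratio was 0.737 to 0.828 in Saline, 0.574 to 0.628 in OVA and 0.587 to 0.888 in Herb. These ratios were set side by side after the levels were seen and are given with no test.

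The small RNAs inside the hosts were read next, because each host is the precursor of its own snoRNAs. Of 9 snoRNAs annotated inside Gas5 1 has a row (Snord47), of 8 inside Snhg1 1 (Snord22), and of 4 inside Snhg12 all 4. Their rows are 74 to 137 nt long, close to or shorter than a sequenced fragment, and some annotated host transcripts hold them in an exon and others in an intron. The library kit named in the methods selects polyadenylated RNA, which mature snoRNAs are not. A read of unspliced host RNA cannot be told apart from one of a mature snoRNA in such a row. The sequences of 4 of them are printed, at GENCODE vM21 positions on GRCm38.p6, because these rows carry the comparison with the hosts. Box C/D snoRNAs are marked at a C box (TGATGA) and a D box (CTGA, the last one), box H/ACA snoRNAs at the ACA near the end. No C box of these letters was found in Snord22 and no ACA at that place in Snora44. Snord22 lies at chr19:8725866-8725991, Snord47 at chr1:161038082-161038158, Snora44 at chr4:132309941-132310069 and Snora61 at chr4:132310240-132310369, all on the plus strand.
Snord22: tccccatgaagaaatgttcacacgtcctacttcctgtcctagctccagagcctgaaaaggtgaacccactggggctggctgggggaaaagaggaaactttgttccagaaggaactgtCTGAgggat
Snord47: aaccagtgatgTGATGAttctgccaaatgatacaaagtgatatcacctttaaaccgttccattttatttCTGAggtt
Snora44: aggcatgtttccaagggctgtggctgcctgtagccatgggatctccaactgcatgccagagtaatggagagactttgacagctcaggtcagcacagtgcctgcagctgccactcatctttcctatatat
Snora61: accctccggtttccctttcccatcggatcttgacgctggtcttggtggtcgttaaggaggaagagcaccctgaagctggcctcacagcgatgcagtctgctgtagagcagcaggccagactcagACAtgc

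Snord22 stood at 338, 580.5 and 409 FPKM in Saline, at 148, 186 and 211 in OVA, and at 134, 243, 126 and 86.3 in Herb. Like its host Snhg1, it was lower in all OVA and Herb libraries than in Saline. It fell in OVA vs. Saline (-1.26 ± 0.37, adjusted p = 0.0144) and Herb vs. Saline (-1.65 ± 0.34, adjusted p = 0.0129), and rescaled values were -0.10 (adjusted p = 0.820) and -1.17 (adjusted p = 0.0343). Snord47 was at 7.89, 12.9 and 6.88 FPKM in Saline, 2.60, 3.42 and 0.788 in OVA and 1.53, 3.82, 1.44 and 1.95 in Herb. It fell in OVA vs. Saline (-1.70 ± 0.38, adjusted p = 0.00398) and Herb vs. Saline (-1.69 ± 0.36, adjusted p = 0.0136). Rescaled, the former did not pass (-0.81, adjusted p = 0.133) and the latter did (-1.28, adjusted p = 0.0479). Its host Gas5 overlapped between Herb and Saline, and the ratio of Snord47 to Gas5 was 1.15 to 2.17 in Saline, 0.159 to 0.974 in OVA and 0.294 to 0.554 in Herb.

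The 4 snoRNAs of Snhg12 did not move together. Snora44 was at 16.3, 29.9 and 13.3 FPKM in Saline, 4.46, 8.36 and 5.05 in OVA and 4.57, 9.38, 3.06 and 2.35 in Herb. It fell in OVA vs. Saline (-1.54 ± 0.44, adjusted p = 0.0133) and Herb vs. Saline (-1.89 ± 0.41, adjusted p = 0.0148), and only the latter passed after rescaling (-1.46, adjusted p = 0.0334). Snora61 stood at 10.4, 12.7 and 8.48 FPKM in Saline, 17.3, 13.2 and 17.3 in OVA and 10.1, 9.40, 11.9 and 7.58 in Herb. All OVA libraries were above all libraries of the other groups. It rose in OVA vs. Saline (0.57 ± 0.20, adjusted p = 0.0325) and fell in Herb vs. OVA (-0.66 ± 0.19, adjusted p = 0.0197), against the direction of most gene sums in both, and both calls held after rescaling (1.65, adjusted p = 0.00157, and -1.31, adjusted p = 0.0420). Relative to the Snhg12 locus sum, Snora61 was at 0.980 to 1.19 in Saline, 2.78 to 6.25 in OVA and 1.87 to 2.69 in Herb. It lies inside an exon of 4 of the 10 annotated Snhg12 transcripts, and the other 3 snoRNAs inside an exon of 2 or 3. Snord99 fell in OVA vs. Saline (-0.95 ± 0.26, adjusted p = 0.0104) from 2.66, 4.05 and 5.99 to 1.28, 1.80 and 1.81 FPKM, and rescaled it was at -0.13 (adjusted p = 0.741). Snora16a overlapped between all groups at 0.766 to 6.43 FPKM.

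**Figure D4:**
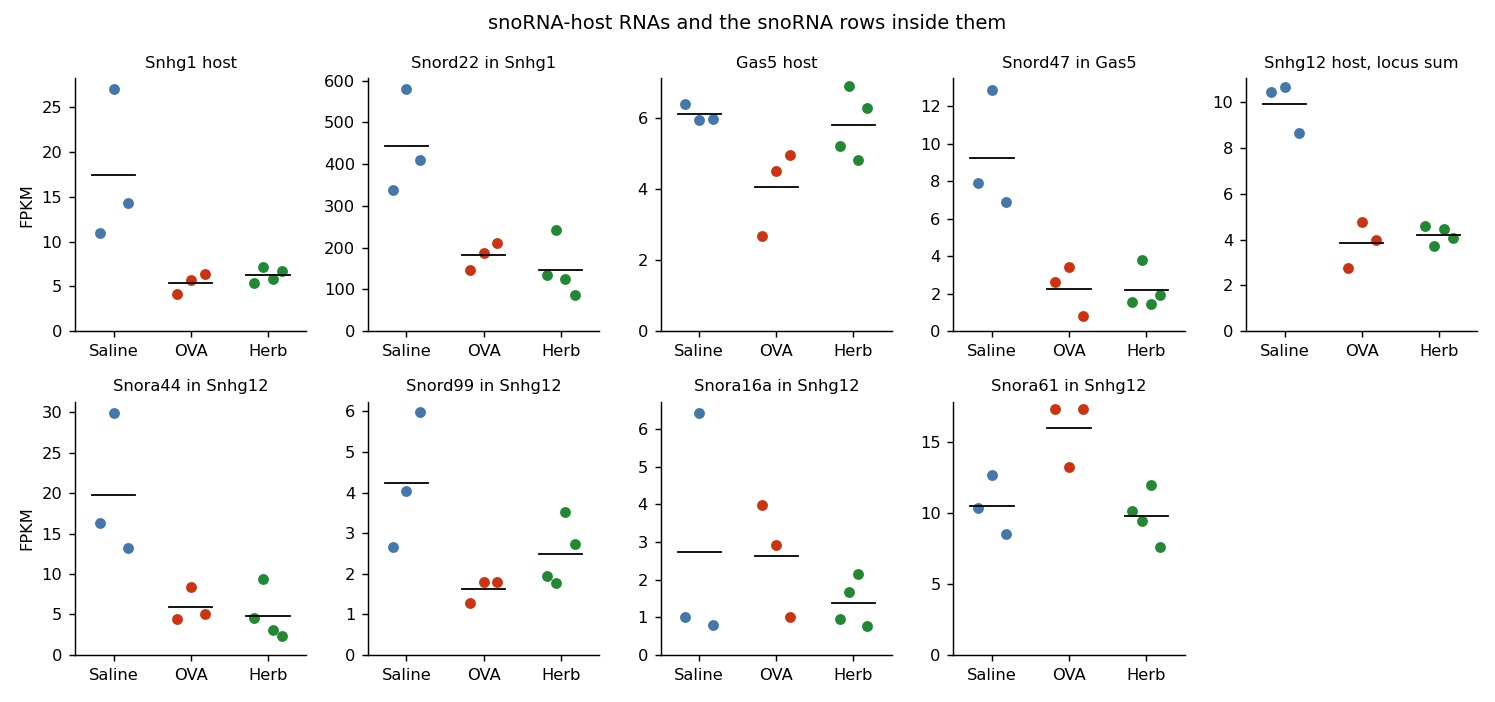
FPKM (y axis, linear from 0) of Snhg1, Gas5 and the Snhg12 locus sum and of the 6 snoRNA rows inside them, 1 point per library and black lines for group means. Snord22, Snord47 and Snora44 are lower in all OVA and Herb libraries than in Saline, and Snora61 is higher in the 3 OVA libraries than in all others.

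Of 18 further snoRNA-host RNAs 14 were in the table and 11 tested. In OVA vs. Saline 1 was called higher and 5 lower, with a median of -0.46 against -0.75 for all gene sums, and in Herb vs. OVA 2 higher and none lower, with 0.28 against 0.48. Over all gene sums 3.28% were called higher and 57.9% lower in the former, and 44% higher and 0.446% lower in the latter. After rescaling 4 of 12 were called higher and 1 lower in OVA vs. Saline, where 41.8% of all gene sums were called. At the low end was Snhg3, at 4.16, 10.7 and 3.68 FPKM in Saline, 0.975, 1.32 and 0.826 in OVA and 1.47, 1.45, 0.862 and 2.03 in Herb. Its level fell in OVA vs. Saline (-1.69 ± 0.33, adjusted p = 0.00171) and Herb vs. Saline (-1.44 ± 0.31, adjusted p = 0.0137), and both passed after rescaling (-0.92, adjusted p = 0.0421, and -1.06, adjusted p = 0.0417). At the high end was Snhg11, at 1.02 to 1.195 FPKM in Saline, 1.86 to 2.74 in OVA and 1.96 to 4.33 in Herb, which rose in both (0.67 ± 0.21, adjusted p = 0.0203, and 0.82 ± 0.20, adjusted p = 0.0197), also rescaled (1.41, adjusted p = 0.00275, and 1.06, adjusted p = 0.0228).

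The proteins that bind snoRNAs and the decay factors that clear spliced hosts were counted too. Among 9 snoRNP proteins tested of 11 listed, 5 were called lower and none higher in OVA vs. Saline, with a median of -0.76, beside 57.9% called lower and a median of -0.75 over all gene sums, and 3 were higher in Herb vs. OVA, beside 44% of all. Rescaled, 1 was called higher and 2 lower in OVA vs. Saline, where 41.8% of all gene sums were called. The lowest log2 fold change in OVA vs. Saline was that of Nop10, a small subunit of H/ACA particles. It stood at 10.2 to 18.96 FPKM in Saline, 0.996 to 2.38 in OVA and 3.60 to 5.16 in Herb. Its level fell in OVA vs. Saline (-2.55 ± 0.26, adjusted p = 0.000149) and was higher in Herb vs. OVA (1.08 ± 0.24, adjusted p = 0.00945), and only the fall passed after rescaling (-1.68, adjusted p = 0.00180, and 0.64, adjusted p = 0.136). Fbl, the methyltransferase of box C/D particles, had the highest log2 fold change of the list in OVA vs. Saline but is listed at 0 in 6 libraries, all 3 Saline ones among them, and was not called (adjusted p = 0.192). Of 9 decay factors tested, Upf2 had the lowest log2 fold change in OVA vs. Saline. It stood at 9.54 to 10.03 FPKM in Saline, 2.94 to 5.71 in OVA and 6.51 to 7.34 in Herb (-0.98 ± 0.18, adjusted p = 0.00150, in OVA vs. Saline and 0.53 ± 0.17, adjusted p = 0.0337, in Herb vs. OVA). Neither passed after rescaling (0.02, adjusted p = 0.919, and -0.04, adjusted p = 0.874). Smg6 had the highest log2 fold change in OVA vs. Saline, called only after rescaling (0.38 ± 0.24, adjusted p = 0.191, and rescaled 1.3025, adjusted p = 0.00328). It stood at 2.65 to 3.38 FPKM in Saline, 3.05 to 5.13 in OVA and 1.36 to 3.21 in Herb. In all, 2 decay factors were called lower and none higher in OVA vs. Saline, and after rescaling 6 higher and none lower, with a median that moved from -0.38 to 0.60. Over all gene sums 57.9% were called lower as deposited. After rescaling, 2833 of 11349 were called higher and 1913 lower, and the median of all moved from -0.75 to 0.10.

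H19 and Mir22hg are the microRNA hosts. H19 (chr7:142575530-142578146, minus strand), an imprinted RNA of growing tissues that contains miR-675, was at 0.0107 to 0.166 FPKM in 9 libraries and at 5.33 in Herb replicate 2. Its second row was listed at 0 throughout, and Mir675 was at 0.297 FPKM or less with its highest value in the same Herb library. Igf2, the neighbour that shares enhancers with H19, was looked up after these values were seen and stood at 1.17 FPKM in Herb replicate 2 and 0.240 to 0.320 in the other Herb libraries, 0.883 to 1.24 in Saline and 0.323 to 0.534 in OVA. Without Herb replicate 2, no H19 value exceeded 0.166 FPKM. Mir22hg (chr11:75461539-75466690, plus strand) was at 7.497, 11.03 and 9.10 FPKM in Saline, 4.05, 7.16 and 7.79 in OVA and 7.37, 8.32, 7.36 and 7.44 in Herb, with all groups overlapping. Its log2 fold change was -0.50 ± 0.22 in OVA vs. Saline (adjusted p = 0.0691), 0.27 ± 0.20 in Herb vs. OVA (adjusted p = 0.294) and -0.23 ± 0.20 in Herb vs. Saline (adjusted p = 0.419). It was called lower in the first comparison without OVA replicate 3 (-0.65, adjusted p = 0.0349), and rescaling turned it to 0.52 ± 0.19 (adjusted p = 0.0522), or 0.86 with a common sum of protein-coding rows (adjusted p = 0.00213).

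The hairpin row of Mir22 lies in an exon of both annotated Mir22hg transcripts (chr11:75463716-75463810). It was at 6.04, 7.77 and 6.75 FPKM in Saline, 4.38, 7.19 and 10.01 in OVA, 6.99 and 7.21 in Herb replicates 3 and 4, and only 0.192 and 0.175 in Herb replicates 1 and 2, although Mir22hg itself was at 7.37 and 8.32 there. The 2 low libraries do not follow their host. The row was not called in any comparison (adjusted p = 0.161 to 0.995). The mature products, which this library type does not capture as such, are printed from RefSeq with the seed (bases 2 to 8) in capitals to identify what the host carries.
miR-22-5p: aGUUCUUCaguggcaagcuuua
miR-22-3p: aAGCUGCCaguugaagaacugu

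To compare the classes, the FPKM of Gas5, Snhg1 and Snhg12 was summed and divided by the sum of the 5 nuclear-retained RNAs in each library. The host sum was 25.9, 42.2 and 27.1 FPKM in Saline, 8.40, 13.1 and 13.6 in OVA and 13.4 to 15.2 in Herb. The nuclear-retained sum was 3009, 2025 and 238 FPKM in Saline, 318, 61.9 and 199 in OVA and 418, 536, 921 and 305 in Herb. It was mostly Malat1 and Neat1, since Meg3, Kcnq1ot1 and Miat never exceeded 5.59 FPKM each. Malat1 held 2919.8 FPKM of it in Saline replicate 1 and 0.228 in OVA replicate 2, where Neat1 held 57.1. The ratio thus sets the hosts against Malat1 and Neat1, and without Malat1 mostly against Neat1. Saline had a mean log2 ratio of -5.19 with an SD of 1.89 (n = 3), OVA one of -3.79 with an SD of 1.503 (n = 3), and Herb one of -5.15 with an SD of 0.71 (n = 4). The groups overlapped, with a Saline spread larger than any difference between groups. It is given with no test. Without Malat1 the Saline libraries stood at -1.84 to -1.46, above every OVA library (-4.93 to -2.13) and every Herb library (-4.80 to -2.20), and the lowest library of both latter groups was the one with the high short Neat1 row. With the assembled models of the loci, the ratio was -6.99 to -4.13 in Saline, -5.71 to -4.76 in OVA and -7.04 to -5.68 in Herb. Over the classes, 3 of 3 snoRNA hosts and 2 of 4 nuclear-retained members tested were called lower in OVA vs. Saline, with medians of -1.44 and -0.40, and 2 of 3 hosts and no nuclear-retained member were called lower in Herb vs. Saline. Over all gene sums 57.9% were lower in the former, with a median of -0.75, and 22.7% in the latter. The difference between the classes was not tested, and after rescaling none of the hosts was called lower as a gene sum in either comparison.

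**Figure D5:**
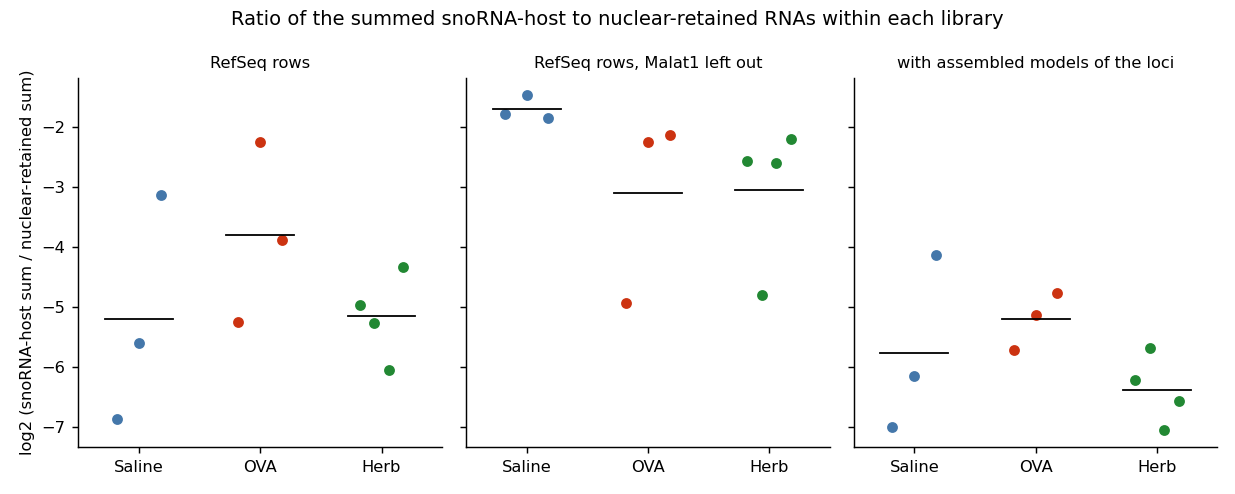
Log2 ratio of the summed snoRNA-host to nuclear-retained FPKM in each library (y axis), 1 point per library and black lines for group means, from RefSeq rows, without Malat1, and with assembled models of the loci. The groups overlap with RefSeq rows and with assembled models, and the 3 Saline libraries are above all others without Malat1.

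Among 25 further named long noncoding RNAs 22 were in the table and 10 tested, of which 7 were called lower and 1 higher in OVA vs. Saline, with a median of -1.04, and 5 higher in Herb vs. OVA. Over all gene sums 57.9% were lower and 3.28% higher in the former, with a median of -0.75, and 44% were higher in the latter. Tug1, a broadly expressed RNA, had the lowest log2 fold change in OVA vs. Saline. It was at 9.25, 22.7 and 21.9 FPKM in Saline, 5.21, 3.60 and 2.51 in OVA and 5.02, 6.55, 5.22 and 6.18 in Herb. Its level fell in OVA vs. Saline (-1.93 ± 0.33, adjusted p = 0.000835) and Herb vs. Saline (-1.40 ± 0.31, adjusted p = 0.0150), and neither passed after rescaling (-0.93, adjusted p = 0.0611, and -0.96, adjusted p = 0.0775). Pvt1, the neighbour of Myc, had the highest log2 fold change in OVA vs. Saline (0.58 ± 0.21, adjusted p = 0.0343, rescaled 1.24, adjusted p = 0.00291). It stood at 0.604 to 1.04 FPKM in Saline, 1.06 to 2.69 in OVA and 1.42 to 1.93 in Herb. Rescaled, 2 of 12 were called higher and 1 lower, with 41.8% of all gene sums called.

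The genes with the pattern most like Malat1 were found by the smallest root-mean-square difference of centred, rescaled log2 values over the 10 libraries, among 11205 gene symbols. These were Cdc42, Rnase4 and Trappc2l, at 1.86, 1.89 and 1.94 log2 units, compared with a spread of 2.82 for Malat1 itself, so that none was close. All 3 had their lowest value in OVA replicate 2, at 1.43, 0.0582 and 0 FPKM, as the Malat1 row had. The genes were picked for likeness to that row over these same libraries, so the shared low value is no separate observation.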

How the data were processed

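Lung RNA of 10 mice was sequenced as paired-end libraries on an Illumina NextSeq sequencer. Per the labels, reads were trimmed with cutadapt 1.10, aligned to mm10 with HISAT2 and assembled with StringTie 1.3.3b, and the authors deposited FPKM per transcript, read out with ballgown, in 1 table without scaling between libraries beyond FPKM. The labels name an unstranded and the methods a stranded kit. Groups and replicate numbers came from sample titles, and the study gives n as samples from mice of each treatment. The authors' edgeR comparisons rest on counts that were not used here.

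Rows were summed per symbol. Differences were tested with limma 3.58.1 (lmFit, eBayes with trend) in R 4.3.3 on log2(FPKM + 1), which understates changes of low transcripts, with all 10 libraries in 1 fit, no covariates, and features with a mean of at least 1 FPKM. Locus sums add assembled models placed by their numbering (7 at the members' loci, 6299 of 31605 in all) and were chosen after the values were seen. Shares were compared with exact permutation tests. Depth came from the steps of values under 0.1 FPKM, which may be off by the factor of a half-fragment step, so no counting intervals are given. Coordinates are from GENCODE vM21 and RefSeq on GRCm38.p6, the assembly of mm10. All listed members were named, and from each further list the tested genes with the highest and lowest log2 fold change in OVA vs. Saline. Xist was added to the further named long noncoding RNAs after its values were seen. The members and lists were chosen with earlier results of these data known. The fit was tested on simulated data. Alternatives were pseudocount, filter, scaling, the groups in the fit, a replicate block and each library left out. Tables and figures were made in Python 3.11.15 with pandas 2.3.3, matplotlib 3.10.9, scipy 1.17.1 and numpy 2.4.6. The genes with the pattern most like Gas5 are not reported here.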

Additional observations from a re-analysis of the deposited data

Results flagged for a closer look

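In the 4 Herb libraries, 4 values of replicate 2 stood apart from the others by more than the 95% limit of Dixon's test for 4 values, which chance passes in about 1 group in 20. The limit was applied to the gene sum of each member and to locus sums that differ from it. None was set for groups of 3, so Saline and OVA libraries could not be flagged. H19 was at 5.33 FPKM, with a gap to the next library of 0.980 of the range. Neat1 was at 384 FPKM as a gene sum and 396 FPKM as a locus sum, both through its short row. Such a sum depends on how reads were split between rows of unlike length, so it need not mean more Neat1 reads. Mir22hg was at 8.32 FPKM, next to 7.36 to 7.44 in the other 3, inside the range of the Saline libraries. Herb replicate 2 also listed the Snhg12 row at 0. It had the lowest Rn45s of its group (3229.7 FPKM) and the highest share of fragments in protein-coding rows (25.8%), and the part of these in the 4 values was not tested.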

How the results depend on the processing

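Rescaling every library, to a common 75th percentile or to a common sum of protein-coding (NM_) rows, changed most. Each of these scalings reversed 11 of 24 member differences, and 6 others kept their direction and lost their call. Of the reversed values, Gas5 in OVA vs. Saline was called at the 75th percentile, and 5 were called with the NM_ sum, namely Kcnq1ot1, Gas5 and Mir22hg in OVA vs. Saline (adjusted p = 0.0272, 0.00213 and 0.00213) and Kcnq1ot1 and Gas5 in Herb vs. Saline (adjusted p = 0.0348 and 0.0277). With the NM_ sum, 4 members were called higher and 0 lower in OVA vs. Saline and 3 and 0 in Herb vs. Saline, and over all gene sums 4520 higher and 984 lower, and 2200 and 321. Values follow in the order 75th percentile, NM_ sum, and locus sums at the 75th percentile, and locus sums were chosen after seeing the data. In OVA vs. Saline, Neat1 was at 1.09, 1.47 and 1.36 (0.30 for locus sums as deposited), Kcnq1ot1 at 0.14, 0.44 and 0.0689, Gas5 at 0.44, 0.77 and 0.36, and Mir22hg at 0.52, 0.86 and 0.44. In Herb vs. OVA, Neat1 was at -0.43, -0.61 and -0.57, Gas5 at -0.11, -0.27 and -0.0854, Snhg1 at -0.41, -0.57 and -0.38, and Mir22hg at -0.33, -0.50 and -0.30, and Snhg12 locus sums gave 0.12. In Herb vs. Saline, Kcnq1ot1 was at 0.31, 0.47 and 0.27, Gas5 at 0.33, 0.49 and 0.28, and Mir22hg at 0.19, 0.37 and 0.14. Members called as gene sums became 2 (75th percentile) and 1 (locus sums at it) in OVA vs. Saline, 0 under all 3 scalings in Herb vs. OVA, and 1 (75th percentile) in Herb vs. Saline. As single rows they became 1 (75th percentile) and 3 (NM_ sum, no filter, replicate block), then 0 (75th percentile, NM_ sum), then 0 (75th percentile, replicate block) and 1 (pseudocount 0.1, no filter, only the 2 groups). Over all gene sums, calls in Herb vs. OVA became 93, 640 and 290, and in Herb vs. Saline 1823 at the 75th percentile. Over all rows they became 7817 at the 75th percentile in OVA vs. Saline, 189 (75th percentile), 329 (NM_ sum), 6392 (only the 2 groups) and 5794 (replicate block) in Herb vs. OVA, and 1312 (pseudocount 0.1), 4882 (NM_ sum) and 235 (replicate block) in Herb vs. Saline. The host to nuclear-retained log2 ratio moved from 1.41, -1.36 and 0.05 to -1.41, 0.0642 and -1.34 without Malat1, to -0.19 (OVA vs. Saline) and -0.95 (Herb vs. Saline) as a mean of log2 values, and to -0.62 (Herb vs. Saline) as locus sums.

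Leaving out 1 library at a time gave 3 to 7, 1 to 3 and 1 to 3 called members as gene sums in the 3 comparisons, and 3 to 6, 0 to 1 and 0 to 2 as single rows. Calls over all gene sums ranged from 3221 (without OVA replicate 1) to 5070 in Herb vs. OVA and from 894 (without Saline replicate 2) to 3254 in Herb vs. Saline, and over all rows from 209 (without OVA replicate 1) to 9366 and from 183 (without Saline replicate 2) to 2992. Neat1 ranged from -0.78 to 0.34, -0.36 to 0.98 and -0.41 to 0.44, and in Herb vs. OVA Meg3 from -0.42 to 0.0585 and Snhg12 from -0.46 to 0.24. In Herb vs. Saline, Kcnq1ot1 ranged from -0.16 to 0.00349, Gas5 from -0.15 to 0.00124 and the ratio from -0.79 to 1.08. The long Neat1 share in Herb vs. OVA ranged from -21.4 to 32.4 points and the Meg3 share from -4.80 to 3.17. The replicate numbers did not pair the libraries, since deviations of same-numbered libraries correlated at -0.0313 to 0.0727 (9 pairs) and others at -0.0745 to 0.115 (24 pairs). With the replicate block, 6603, 4040 and 1342 gene sums were called, the Gas5 call in OVA vs. Saline and the Snhg12 call in Herb vs. Saline did not pass (adjusted p = 0.0662 and 0.0698), and Kcnq1ot1 in Herb vs. Saline was at 0.00349. With a pseudocount of 0.1 both Snhg12 calls did not pass (adjusted p = 0.194 and 0.103), and in the fit of only the 2 groups neither Malat1 nor Gas5 did in OVA vs. Saline (adjusted p = 0.0600 and 0.0692). The cause was not tested for any of these changes. Miat and H19 lay below the filter and have no test result here, and at most of their values few fragments were counted.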
